A study of Mus musculus with 6 samples.

Results

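The cyclin-dependent kinase (CDK) inhibitors and the Gadd45 growth-arrest proteins are 10 genes whose products slow or stop the cell cycle. Their response to a glucocorticoid was followed in C3H10T1/2, an established line of mouse mesenchymal cells, which are precursors able to form adipocytes, myotubes, osteoblasts or chondrocytes. The genes are Cdkn1a, Cdkn1b and Cdkn1c (the Cip/Kip family), Cdkn2a, Cdkn2b, Cdkn2c and Cdkn2d (the INK4 family), and Gadd45a, Gadd45b and Gadd45g. Their probes were taken by gene symbol alone and made up 17 of the 38467 probes on the array. After the probes of a gene had been averaged, they were 10 of 27046 genes and unnamed probes tested.

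Cultures received 1 µM dexamethasone, a synthetic agonist of the glucocorticoid receptor, for 90 minutes, or its solvent DMSO (the vehicle). There were 3 biological replicates of each, and all cells were grown in DMEM with 10% serum. Each culture was hybridised on its own two-colour array, with its RNA in the Cy3 channel and one pool of RNA of this line in the Cy5 channel. Per the sample labels the pool held cultures given DMSO, dexamethasone or myostatin. Each value is thus relative to a mixture that itself contains treated cells. The values were read as log2 ratios, a scale inferred from the values themselves. All dexamethasone arrays and vehicle 3 hold some values beyond 100 in size, so every fold given here rests on that reading. A ratio gives no level, and the values of 2 genes cannot be ranked against each other. In RNA of a whole culture, a change in every cell and a change in a share of the cells cannot be told apart.

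CDK inhibitors act at the point where a cell commits to copy its DNA. The INK4 proteins bind CDK4 and CDK6 and keep cyclin D from activating them, while the Cip/Kip proteins bind whole cyclin-CDK complexes, above all those of CDK2. Gadd45 proteins are small stress-induced regulators that bind the kinase encoded by Map3k4, the replication clamp protein encoded by Pcna, Cdkn1a protein and the complex of Cdk1 with cyclin B. Glucocorticoids are known to arrest the growth of many cell types.

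With dexamethasone, Gadd45g was 4.48-fold higher than with vehicle and Cdkn1a 1.82-fold higher, while Cdkn2b was 2.41-fold lower and Gadd45a 1.49-fold lower. In each of these 4 genes the 3 dexamethasone arrays lay on one side of the 3 vehicle arrays. This held both as deposited and after median centring of the arrays. Of all features with complete values, 9.95% were likewise apart above and 7.29% below as deposited, and 5.57% and 3.99% after centring. The other 6 genes, Cdkn1b, Cdkn1c, Cdkn2a, Cdkn2c, Cdkn2d and Gadd45b, had differences between -0.23 and 0.46 on the log2 scale. None of the 10 passed at a Benjamini-Hochberg adjusted p of 0.05 in the limma fit over all 27046 features, in which 0% were called. At an unadjusted limma p of 0.05, 2 of the 10 were higher and 2 lower, against 4.43% of all features higher and 0.995% lower. Over the 17152 features without low-signal probes, among which all 10 members remained, the counts of members were the same and the shares 4.9% higher and 2.56% lower.

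The arrays were of unequal quality, which bears on every value. Missing values numbered 1695 to 4290 on the dexamethasone arrays and 552 to 932 on the vehicle arrays. The array medians ran from -0.12 to 0.57 for dexamethasone and from -0.12 to 0.16 for vehicle, so that the median difference over all features was 0.32 as deposited and 0.02 after centring. Dexamethasone 1 resembled vehicle 1 and vehicle 2 more than it did the other dexamethasone arrays, which resembled vehicle 3, and values are therefore also given within these 2 sets of arrays. All 17 member probes had values on all 6 arrays, and none carried either mark of a very dim spot, a size above 10 or a match to the quotient of 2 whole numbers up to 10. Whether the ratios are sample over pool is not stated in the labels. That reading was kept because 5 of 6 textbook glucocorticoid targets (Fkbp5, Per1, Tsc22d3, Sgk1 and Dusp1, but not Zbtb16) were higher with dexamethasone at an unadjusted limma p of 0.05. Across all probes the Spearman correlation was lowest between dexamethasone 3 and vehicle 2, at -0.33. It was also negative within the treatment, at -0.22 between dexamethasone 1 and dexamethasone 2 and -0.27 between dexamethasone 1 and dexamethasone 3. The cause of the negative values was not tested. With the sign of the ratios turned, Gadd45g and Cdkn1a would be lower and Cdkn2b and Gadd45a higher. Of 8 mesenchymal markers (Col1a1, Vim, Pdgfra and the like), 0 differed at an unadjusted limma p of 0.05. Of these, 6 had differences below 0, with a median of -0.47 as deposited and -0.78 after centring, and a ratio to a pool of the same line cannot show whether they are expressed.

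The promoters of the 4 genes whose groups were apart both as deposited and after centring are shown because motifs for known regulators of the family can be read in them. Each line is the 250 bases before a transcription start, 5′ to 3′ on the gene's strand, from RefSeq (GRCm38.p6), and capitals mark the motifs searched on both strands. Cdkn1a has 2 starts in the table.
Gadd45g, chr13:51846425-51846674, + strand: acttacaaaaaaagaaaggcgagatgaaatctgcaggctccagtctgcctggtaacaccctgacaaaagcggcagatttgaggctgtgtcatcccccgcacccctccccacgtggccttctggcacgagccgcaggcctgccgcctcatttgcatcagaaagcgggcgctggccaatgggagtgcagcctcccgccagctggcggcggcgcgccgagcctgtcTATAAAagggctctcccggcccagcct
Cdkn1a, upstream start, chr17:29090729-29090978, + strand: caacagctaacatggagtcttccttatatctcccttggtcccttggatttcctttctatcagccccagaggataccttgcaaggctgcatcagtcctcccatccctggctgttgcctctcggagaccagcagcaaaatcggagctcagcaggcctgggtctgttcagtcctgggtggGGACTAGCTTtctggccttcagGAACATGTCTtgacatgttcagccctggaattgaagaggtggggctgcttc
Cdkn1a, downstream start, chr17:29093519-29093768, + strand: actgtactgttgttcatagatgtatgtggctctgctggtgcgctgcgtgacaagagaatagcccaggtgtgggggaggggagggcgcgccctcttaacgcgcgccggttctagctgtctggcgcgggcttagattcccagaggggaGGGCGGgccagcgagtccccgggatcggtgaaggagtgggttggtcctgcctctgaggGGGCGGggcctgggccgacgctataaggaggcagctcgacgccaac
Cdkn2b, chr4:89311033-89311282, - strand: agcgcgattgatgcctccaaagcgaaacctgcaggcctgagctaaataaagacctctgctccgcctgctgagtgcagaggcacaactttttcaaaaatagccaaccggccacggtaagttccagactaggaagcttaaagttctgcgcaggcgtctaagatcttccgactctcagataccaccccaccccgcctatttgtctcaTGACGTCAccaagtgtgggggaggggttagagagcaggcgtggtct
Gadd45a, chr6:67037408-67037657, - strand: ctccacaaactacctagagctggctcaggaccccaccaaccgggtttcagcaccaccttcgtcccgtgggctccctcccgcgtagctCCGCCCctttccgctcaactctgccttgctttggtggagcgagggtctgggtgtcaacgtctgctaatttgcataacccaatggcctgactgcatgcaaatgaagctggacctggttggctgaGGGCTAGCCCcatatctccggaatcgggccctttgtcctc

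The capitals in the Gadd45g window are a TATA box (TATAAA) that starts 27 bases before the start, a motif held by 12.4% of the 32851 RefSeq windows of the same length. In the upstream Cdkn1a window they are matches to the 10-base p53 motif, of which it holds 2, and 7.13% of all windows hold at least 1. The Gadd45a window also holds a p53 motif, 40 bases before its start, and an Sp1 box (GGGCGG) on the opposite strand. The downstream Cdkn1a window holds 2 Sp1 boxes, found in 32.7% of all windows. Cdkn2b has a CRE (TGACGTCA), the binding motif of CREB, 46 bases before its start, found in 1.55% of all windows. The core of the glucocorticoid receptor element (ACANNNTGT) was in 0 of the 12 windows available for 9 of the members, against 5.84% of all windows. The receptor's shorter motif (TGTTCT) was in 1 of them, at Cdkn2c, against 16.1% of all windows. These matches describe letters within 250 bases only, and Cdkn1c had no window in the table. None of the matches overlapped another in the windows printed.

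Gadd45g, a Gadd45 member induced in growth arrest and in differentiation, had log2 ratios of 0.94, 1.00 and 1.34 on the dexamethasone arrays (always in the order of replicates 1, 2 and 3), against -1.10, -1.18 and -0.95 on the vehicle arrays. The highest vehicle value thus lay well under the lowest dexamethasone value. The difference was 2.16 ± 0.20 (SE, n = 3 each) on the log2 scale, with a limma 95% interval of 1.65 to 2.68. Its unadjusted limma p of 1.06e-04 ranked 19th of 27046, with an adjusted p of 0.151. The difference was 2.07 within dexamethasone 1, vehicle 1 and vehicle 2 (the first set of arrays), and 2.11 within dexamethasone 2, dexamethasone 3 and vehicle 3 (the second set).

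Gadd45a, the founding member of the family and a p53 target, was at -0.71, -0.51 and -0.60 on the dexamethasone arrays, against 0.01, -0.01 and -0.08 on the vehicle arrays. The groups did not overlap, and both were narrow. The difference was -0.58 ± 0.17 (SE, n = 3 each), with a limma 95% interval of -1.004 to -0.15 and an adjusted p of 0.732. It was -0.70 within the first set of arrays and -0.47 within the second. Gadd45b, which responds to TGF-beta and NF-kappaB, was at -0.90, -0.65 and -0.67 with dexamethasone, against -0.39, -0.66 and -0.57 with vehicle. Here the groups overlapped, since vehicle 2 lay below dexamethasone 2. The difference was -0.20 ± 0.19 (SE, n = 3 each), and the limma interval of -0.68 to 0.28 (adjusted p = 0.734) includes 0.

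A difference of 2 genes within each array is free of any constant added to that array, though not of other scalings. The log2 ratio of Gadd45g minus that of Gadd45a was 1.64, 1.51 and 1.93 on the dexamethasone arrays, against -1.11, -1.16 and -0.87 on the vehicle arrays. Gadd45g thus shifted by 2.74 relative to Gadd45a, and by 2.86 after quantile normalization. Gadd45g minus Gadd45b was 1.84, 1.65 and 2.00 with dexamethasone, against -0.71, -0.52 and -0.38 with vehicle, a shift of 2.36 (2.22 after quantile normalization). An exact permutation test gave p = 0.1 for each, two-sided, the smallest that 3 against 3 arrays allow. These pairs and the 2 given below were chosen after their values had been seen, and such a shift does not show which gene of a pair changed. For every pair given here and below, the p of 0.1 was fixed beforehand. In Gadd45g with Gadd45a, and in both pairs given below, the first gene's groups were apart above and the second gene's apart below. In Gadd45g with Gadd45b, the gap between the Gadd45g groups (0.94 against -0.95) was wider than the whole range of Gadd45b (-0.90 to -0.39). That p therefore adds nothing to the values.

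**Figure D1:**
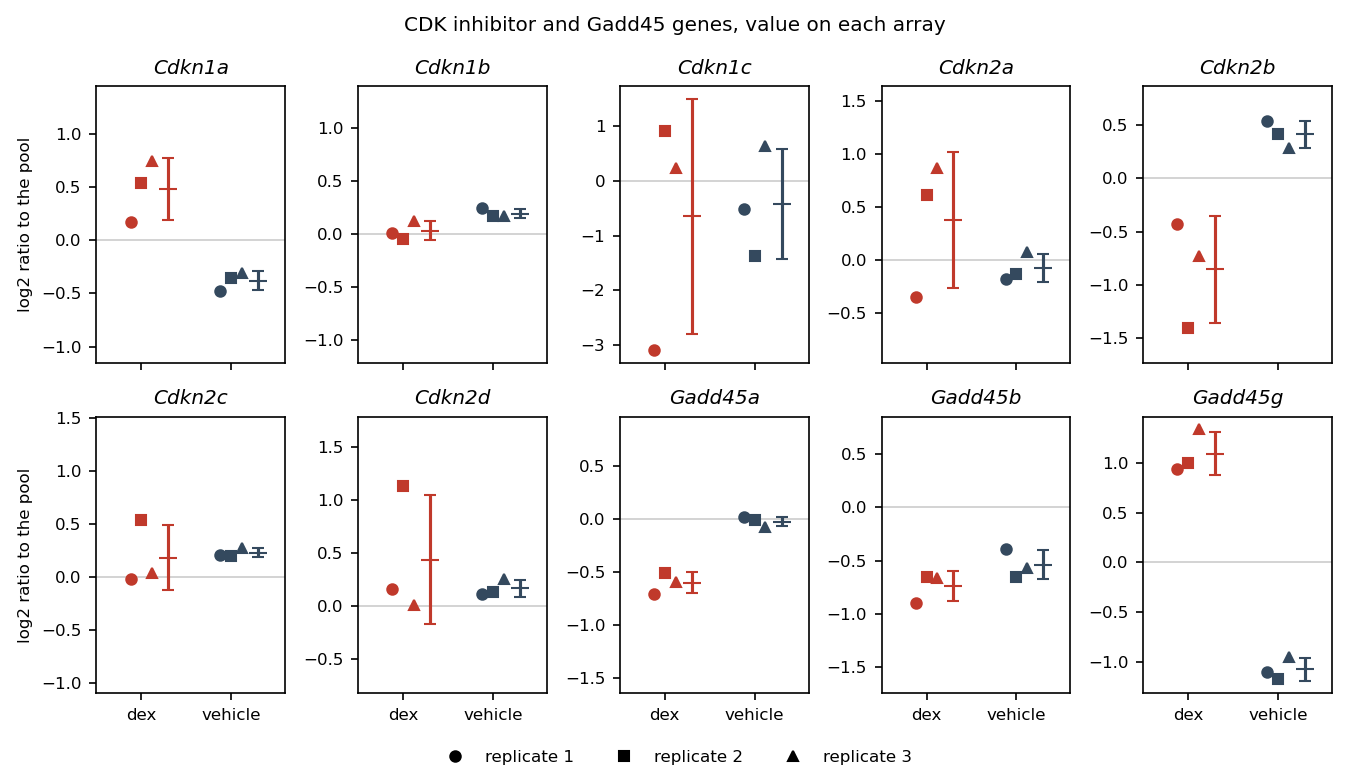
Log2 ratio to the pool of each of the 10 genes, with dexamethasone on the left and vehicle on the right of each panel; symbols are single arrays, and the bar beside them is the mean with its SD (n = 3). The vertical ranges differ between panels. The groups are apart in Gadd45g, Cdkn1a, Cdkn2b, Gadd45a and, by a smaller margin, Cdkn1b, and Cdkn1c has by far the widest spread. Of all features with complete values, 9.95% were apart with dexamethasone above and 7.29% with dexamethasone below.

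Among the Cip/Kip genes, Cdkn1a encodes p21, an inhibitor of CDK2 complexes and a textbook target of p53. It was at 0.17, 0.53 and 0.75 on the dexamethasone arrays, against -0.48, -0.35 and -0.31 on the vehicle arrays. As deposited, all dexamethasone values were above 0 and all vehicle values below it. After centring, dexamethasone 2 was at -0.04. The difference was 0.86 ± 0.22 (SE, n = 3 each), with a limma 95% interval of 0.30 to 1.43, an unadjusted p of 0.0112 and an adjusted p of 0.671. Its 2 probes gave differences of 0.75 and 0.97, and on each of them the groups were apart. Within the 2 sets of arrays the differences were 0.58 and 0.95.

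Cdkn1b, which encodes p27, an inhibitor that accumulates in resting cells mainly through slower protein breakdown, was at 0.01, -0.05 and 0.13 with dexamethasone, against 0.24, 0.17 and 0.17 with vehicle. The groups were narrowly apart as deposited and overlapped after centring. The difference was -0.16 ± 0.17 (SE, n = 3 each; limma 95% interval -0.58 to 0.26, adjusted p = 0.744). Its probes disagreed in sign, with 0.10 on one and -0.43 on the other, and only the second had separated groups. The log2 ratio of Cdkn1a minus that of Cdkn1b was 0.15, 0.58 and 0.62 on the dexamethasone arrays, against -0.72, -0.52 and -0.48 on the vehicle arrays, a shift of 1.03 (exact permutation p = 0.1, two-sided). After quantile normalization that shift was 1.53.

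Cdkn1c encodes p57, an inhibitor expressed from the maternal allele and reported as glucocorticoid-induced in human cells. Its single probe was at -3.09, 0.92 and 0.24 with dexamethasone, against -0.52, -1.36 and 0.63 with vehicle. The groups overlapped fully, and dexamethasone 1 lay far below the 5 other arrays. The difference of -0.23 ± 1.22 (SE, n = 3 each) had a limma 95% interval of -3.35 to 2.89 (adjusted p = 0.949), so changes in either direction of several fold are within it. Without dexamethasone 1 the difference was 1.00, and without vehicle 3 it was 0.30.

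Among the INK4 genes, Cdkn2b, which encodes p15, the inhibitor induced by TGF-beta, stood apart. It was at -0.43, -1.41 and -0.73 on the dexamethasone arrays, against 0.54, 0.42 and 0.28 on the vehicle arrays. Every dexamethasone value was below 0 and every vehicle value above it, with more spread among the dexamethasone arrays. The difference was -1.27 ± 0.31 (SE, n = 3 each; limma 95% interval -2.06 to -0.48), with an unadjusted p of 0.00882 and an adjusted p of 0.608. It was -0.91 and -1.35 within the 2 sets of arrays, and -2.65 after quantile normalization. Its single probe names no other gene in the annotation.

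Cdkn2a, the neighbour of Cdkn2b on chromosome 4, encodes p16Ink4a and, in another reading frame, the p53 activator p19Arf. It was at -0.34, 0.61 and 0.87 with dexamethasone, against -0.17, -0.13 and 0.08 with vehicle, and dexamethasone 1 lay below all vehicle arrays. The difference was 0.46 ± 0.37 (SE, n = 3 each; limma 95% interval -0.49 to 1.40, adjusted p = 0.732). Its 3 probes gave 0.16, 0.21 and 1.00, none with separated groups. Within the first set of arrays the gene's difference was -0.19 and within the second 0.66, so its sign depended on the set. The log2 ratio of Cdkn1a minus that of Cdkn2b was 0.60, 1.94 and 1.48 on the dexamethasone arrays, against -1.02, -0.77 and -0.59 on the vehicle arrays, a shift of 2.13 (exact permutation p = 0.1, two-sided). After quantile normalization that shift was 3.43.

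Cdkn2c, which encodes p18, was at -0.02, 0.54 and 0.04 with dexamethasone, against 0.21, 0.20 and 0.28 with vehicle. Dexamethasone 2 was the highest of the 6 arrays and the other dexamethasone arrays the lowest. The difference was -0.04 ± 0.22 (SE, n = 3 each; limma 95% interval -0.61 to 0.53, adjusted p = 0.945), and its 3 probes ran from -0.17 to 0.16. Cdkn2d, which encodes p19Ink4d, was at 0.16, 1.13 and 0.01 with dexamethasone, against 0.11, 0.14 and 0.26 with vehicle. The high value came from 1 probe on 1 array: mMA034168 was at 2.03 on dexamethasone 2, where the other probe of the gene, mMC009333, was at 0.23. The gene's difference was 0.27 ± 0.35 (SE, n = 3 each; limma 95% interval -0.62 to 1.16, adjusted p = 0.785), and it was -0.08 without dexamethasone 2.

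**Figure D2:**
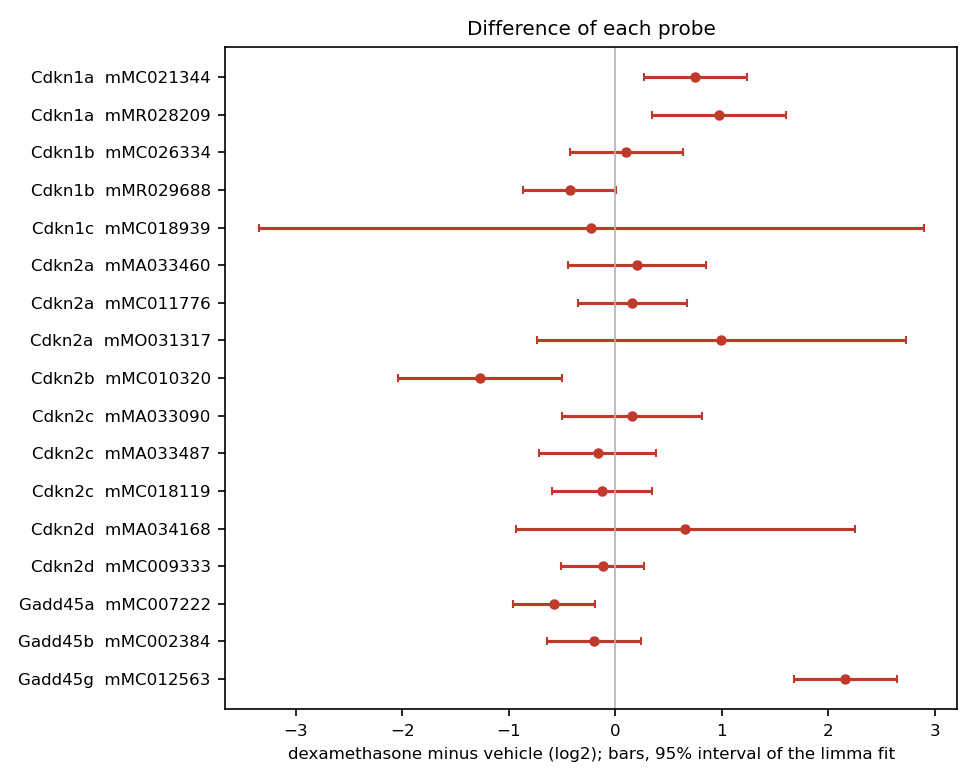
Difference between dexamethasone and vehicle (log2) for each of the 17 probes, with the 95% interval of the limma fit over all probes, grouped by gene from Cdkn1a at the top to Gadd45g at the bottom. The 2 probes of Cdkn1a lie together at 0.75 and 0.97, whereas those of Cdkn1b and Cdkn2d fall on either side of 0.

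Centring each array on its median moved every member difference down by 0.31. After it, Gadd45g stood at 1.86 ± 0.29 (SE), Cdkn1a at 0.56 ± 0.26, Gadd45a at -0.89 ± 0.29 and Cdkn2b at -1.58 ± 0.49, with a limma adjusted p of 0.738 for each. The unadjusted limma p of Cdkn1a was then 0.083, no longer under 0.05. Those of Gadd45g, Cdkn2b and Gadd45a were 9.02e-04, 0.020 and 0.024. As deposited, 2 members had all dexamethasone values above and 3 had all of them below the vehicle values. The shares over the 22880 features with complete values were 9.95% above and 7.29% below. After centring the same 2 members were above and 4 were below (Cdkn2b, Cdkn2c, Gadd45a and Gadd45b), against 5.57% and 3.99% of all features. Over the 17152 features left by the low-signal filter the shares were 10.4% above and 9.33% below as deposited. Centred shares are not given over these filtered features. Those of 5.57% and 3.99% include features with low-signal probes, which no member has. The median difference of the 10 members was -0.10, against 0.32 over all features, and -0.41 after centring, against 0.02. Over the 17152 filtered features the median was 0.17 as deposited and -0.14 after centring.

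**Figure D3:**
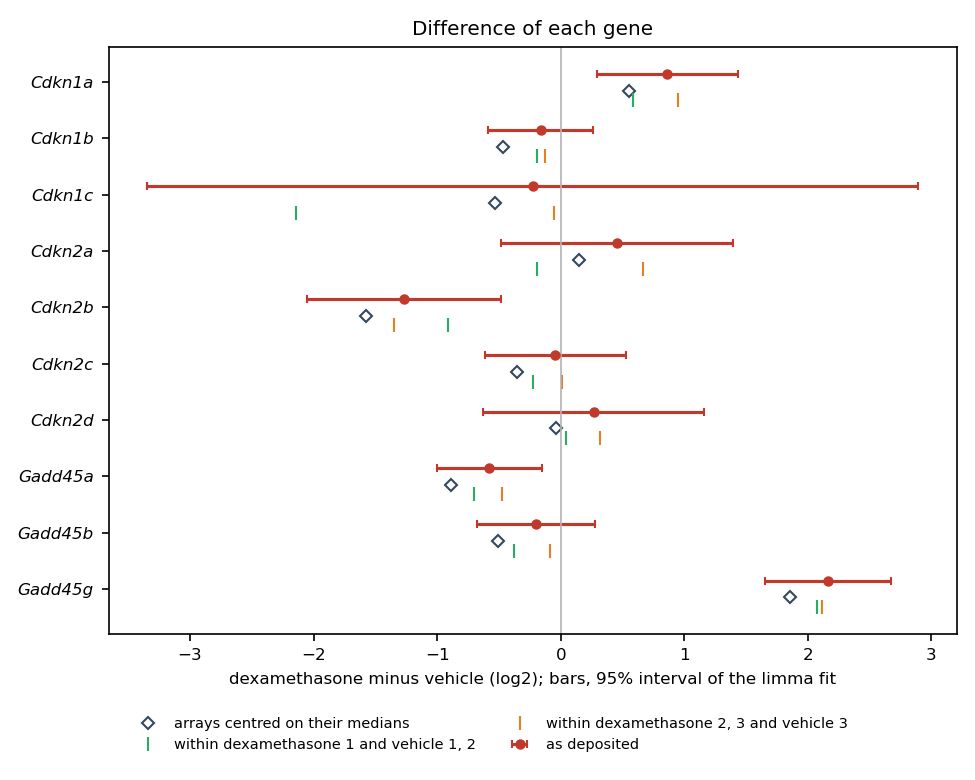
Difference between dexamethasone and vehicle (log2) for each gene. Circles with bars are the deposited values with the 95% limma interval, diamonds the values after median centring, and ticks the differences within each of the 2 sets of arrays. Cdkn2a, Cdkn2c and Cdkn2d change their side of 0 among these 4 values, and the other 7 genes keep theirs, the wide-ranging Cdkn1c included.

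When all probes that were missing or bore a mark of a dim spot on at least 1 array were left out, all 10 members remained among 17152 features. limma then called Gadd45g, with an adjusted p of 0.0401, ranked 15th by p. It was 1 of 26 called higher, 0.152% of the features, and it lay at percentile 96.6 of all differences. Gadd45a, Cdkn1a and Cdkn2b had adjusted limma p of 0.376, 0.388 and 0.392 there. Cdkn2b lay at percentile 0.805 of the differences, Gadd45a at 5.29 and Cdkn1a at 78.9. The call of Gadd45g in that filtered table was lost with any of the other choices tried on it except leaving out dexamethasone 1. The adjusted limma p was 0.408 without vehicle 1, 0.472 without vehicle 2, 0.295 without vehicle 3, 0.142 without dexamethasone 2 and 0.0950 without dexamethasone 3. It was 0.0304 without dexamethasone 1, when Cdkn1a also passed (0.0431) and 934 features in all were called; the dexamethasone arrays left then belong to the same set as vehicle 3. The difference itself stayed between 1.86 and 2.24.

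The genes on which these inhibitors act, and those that control them, were described from lists of related genes. Over all features, 4.43% were higher and 0.995% lower at an unadjusted limma p of 0.05. Of 14 cyclins, CDKs and Cdc25 phosphatases measured, 1 was higher at an unadjusted limma p of 0.05 and 0 were lower: Ccnd3, which encodes cyclin D3, the partner of CDK4 and CDK6 that INK4 proteins oppose. It was at 0.12, 0.93 and 1.06 with dexamethasone, against -0.50, -0.64 and 0.02 with vehicle (difference 1.08 ± 0.35, SE, n = 3 each, limma adjusted p = 0.732). The groups were apart, with dexamethasone higher, in 3 of the 14 (Ccnd3, Ccne1 with 0.60 and Cdk6 with 0.35), and with dexamethasone lower in 1 (Ccnb2, -0.63), against 9.95% and 7.29% of all features with complete values. After centring they were apart in Ccnd3 and Ccne1 above and in Ccnd2 (-0.47), Cdk2 (-0.36) and Cdc25b (-0.42) below. The shares over all features with complete values, those with low-signal probes included, were then 5.57% above and 3.99% below. All of these cyclin, CDK and Cdc25 genes but Ccnd3 were named after their values had been seen. Of 13 pocket proteins and E2F factors, 0 were higher and 1 was lower: E2f5, a repressive E2F, with -0.66 ± 0.22 (SE, n = 3 each, limma adjusted p = 0.732). The medians of these lists were 0.11 and -0.13, against 0.32 for all features and 0.17 for those left by the low-signal filter.

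Of 16 genes measured from the list of p53 and its targets, 3 were higher and 1 was lower at an unadjusted limma p of 0.05. The list median was 0.04, and Trp53, which encodes p53, was not among the 16. The shares over all features were 4.43% higher and 0.995% lower. Fas, which encodes a death receptor, was at -0.66, -1.05 and -0.88 with dexamethasone, against 0.26, 0.36 and 0.27 with vehicle, a difference of -1.16 ± 0.19 (SE, n = 3 each, limma adjusted p = 0.330). Sesn1, which encodes a stress-induced inhibitor of mTORC1 signalling, differed by 0.87 ± 0.26 and Trp53inp1, a p53-induced regulator of cell death and autophagy, by 0.86 ± 0.28 (SE, n = 3 each, limma adjusted p = 0.732 for both), and the groups of these 2 genes overlapped after centring. Pmaip1, which encodes the death protein Noxa, was the third higher gene, with 1.79 ± 0.64, and was named after its value had been seen. The groups were apart in 3 of the 16 above (these 3 genes) and in 3 below, Fas and, likewise named afterwards, Plk2 (-0.61) and Btg2 (-0.31). The shares over all features with complete values were 9.95% above and 7.29% below. After centring the groups of Plk2 overlapped too. The p53 targets Cdkn1a and Gadd45a themselves had opposite signs.

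Of 19 genes that control transcription of the members, 3 were higher and 3 lower at an unadjusted limma p of 0.05. For this list and those after it, the shares over all features were 4.43% higher and 0.995% lower. Over the features left by the low-signal filter they were 4.9% and 2.56%. As deposited, the groups were apart in 4 of the 19 above and in 6 below, against 9.95% and 7.29% of all features with complete values. Cebpb, a C/EBP factor, was 9.09-fold higher, and Foxo3, a FoxO factor that activates Cdkn1b and Gadd45a in other cells, 2.57-fold higher. Egr1, a serum-induced factor, was 1.95-fold lower. Their limma adjusted p were 0.141, 0.582 and 0.635, and Cebpb passed after the low-signal filter. Of 10 other growth-arrest genes measured, 1 was higher and 0 were lower: Ddit4, an inhibitor of mTORC1 signalling, with 1.52 ± 0.21 (SE, n = 3 each, limma adjusted p = 0.256). Of 12 genes of DNA replication and proliferation, 1 was higher and 0 were lower: Rrm2, a subunit of ribonucleotide reductase, with 0.75 ± 0.28 (SE, n = 3 each, limma adjusted p = 0.732). That list's median was 0.32, against 0.32 over all features and 0.17 over the 17152 features left by the low-signal filter. None of its genes had only low-signal probes. None of the 8 partners and kinases of Gadd45 measured, and none of the 9 genes of inhibitor turnover, reached an unadjusted limma p of 0.05, and their medians were 0.17 and 0.17.

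**Figure D4:**
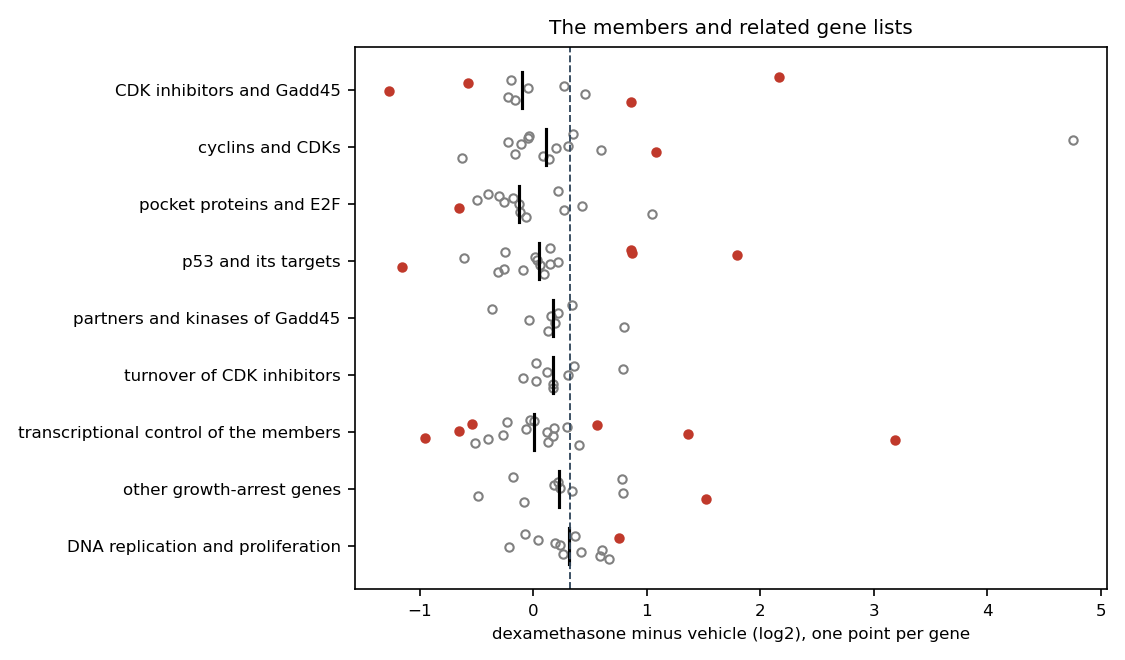
Difference between dexamethasone and vehicle (log2), one point per gene, for the 10 members at the top and the 8 related lists under them; filled points have an unadjusted limma p under 0.05, black bars are list medians, and the dashed line is the median of all features at 0.32. The filled points are 4 of the 10 members, 2 higher and 2 lower, and 0 to 6 genes in each related list. The shares over all features were 4.43% higher and 0.995% lower. Over the features left by the low-signal filter the median was 0.17.

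Markers of other cell types had differences mostly above 0, many of them on dim probes. The median difference was 1.67 over 4 blood cell markers measured, 1.25 over 4 endothelial ones and 1.16 over 4 epithelial ones. All 4, 2 and 2 of these had only low-signal probes, and 1 of the 12, Cd3e, reached an unadjusted limma p of 0.05, without a value on dexamethasone 1. Their part in the member differences was not tested. The members' own probes were free of low signal.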

How the data were processed

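The authors deposited 1 value per probe and array. The submitters' processing notes name limma, while its settings and any background correction are not given in the sources read. The deposited values of vehicle 1 and vehicle 2 were taken as log2 ratios, judged from the values. The deposited columns of the other 4 arrays hold 2 to 27 values beyond 100 in size, so they are a score treated as log2 ratios. Scanner intensities were not used here.

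Probes with exactly 1 symbol in the platform annotation (29456 of 38467) were averaged per gene, and at least 2 values were required in each group. The comparison was fitted with limma 3.58.1 in R 4.3.3 (lmFit, eBayes), two-sided, without normalization or block, with Benjamini-Hochberg adjustment over all features at 0.05. SE is moderated, intervals are 95%, and a fold is 2 to the power of the difference. The number of arrays limits the precision. Simulated data with known changes were used to test the fit. The 10 members (a list of gene names), the related lists, the low-signal filter and the sets of arrays were chosen with earlier results of these data known. Named by rule are all members, of each related list up to 3 genes with the smallest p under 0.05, and 6 textbook targets. Further genes of the related lists were named after their values had been seen, as said where they appear. Same-numbered arrays of the groups correlated at 0.28, -0.17 and 0.35 in their deviations, so the numbers were not taken as pairs. Motifs were searched with Python 3.11.15.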

Additional observations from a re-analysis of the deposited data

How the results depend on the processing

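With the replicate number as a block, 0 features and 0 members were called and the member differences were those given (Gadd45g at 2.16, limma adjusted p = 0.707); over all features the replicate block changed no call, since none was made. Over the 15 settings that refit the gene table, Gadd45g, Cdkn1a, Cdkn1b, Cdkn2a, Cdkn2b, Gadd45a and Gadd45b kept their direction in all 15, with ranges of 1.86 to 2.24, 0.56 to 1.02, -0.75 to -0.12, 0.09 to 0.82, -2.65 to -0.99, -0.89 to -0.53 and -0.51 to -0.12. The adjusted p of Gadd45g ran from 0.0401 to 0.989, and leaving out dexamethasone 1 gave its probe alone 0.0498. The low-signal filter called 29 features, 1 member (Gadd45g) and 1 related gene (Cebpb), and keeping features with values on all 6 arrays called 5 features and 0 members. Both test fewer features. Chosen after seeing the data, the filter was combined with a second choice: it called 1 feature with array weights, 0 with median centring, quantile normalization or either block (with the replicate block Gadd45g lost its call, at a limma adjusted p of 0.536), and 0 to 934 features and 0 to 2 members without 1 array.

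Over these 15 settings the direction of 3 genes turned, and within sets of arrays Cdkn2a was at -0.19 in the first and Cdkn2c at 0.011 in the second. Cdkn1c was at 0.52 with array weights and ran from -1.01 to 1.00 without 1 array (1.00 without dexamethasone 1, 0.30 without vehicle 3). Cdkn2c was at 0.025 with array weights and ran from -0.22 to 0.059 (0.059 without dexamethasone 1, 0.029 without dexamethasone 3). Cdkn2d was at -0.039 after centring and -0.21 after quantile normalization, and ran from -0.078 without dexamethasone 2 to 0.48 without dexamethasone 3. Of single probes, mMC026334 of Cdkn1b was at -0.20 after either normalization and ran from -0.052 to 0.23 without 1 array. mMA033460 of Cdkn2a was at -0.10 centred and -0.075 after quantile normalization, and mMC011776 of Cdkn2a at -0.15 centred. mMA033090 of Cdkn2c was at -0.15 centred and -0.31 after quantile normalization and ran from -0.081 to 0.31 without 1 array. mMA034168 of Cdkn2d ran from -0.021 to 1.06, and mMC018939 of Cdkn1c from -1.01 to 1.00. Where fewer features or arrays do not account for a move, the cause was not tested.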
